A study of Marchantia polymorpha with 9 samples.

Results

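The genes described here were higher in KO thalli than in WT thalli of the liverwort Marchantia polymorpha, while their mean level in OX thalli stayed close to WT. KO, OX and WT are the genotypes as the labels name them, with no locus, allele or construct given for KO or OX. Members were chosen by their measured read counts in the 9 libraries of the series, 3 each of KO, OX and WT. Of the 19287 gene IDs in the count table, 18596 could be taken by the rule and 63 met it. All plants were male, of the Cambridge strain, grown from gemmae on agar, and RNA was taken from thalli at 10 days. The series design states 3 biological replicates for a line, so each genotype is represented by 1 line, and what is due to genotype and what to line cannot be told apart.

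The series is about MYB transcription factors of the lineage that includes MIXTA. In flowering plants MIXTA-like MYB proteins shape epidermal cells and act on genes for the cuticle, the layer of cutin and waxes that limits water loss from aerial surfaces. A liverwort thallus is a flat, haploid plant body whose upper epidermis carries a cuticle. The row of the altered gene could not be named from the labels, so its level in KO and OX was not checked.

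The gene IDs are those of version 3.1 of the gene models, and the file pairs none of them with a name. In the table of names and locus tags used here, 0 of the 63 IDs were found, so no product, coordinate or sequence is given for any of them. They are described by level, by spread and by place in the ID series. An ID holds a scaffold number before the letter s and a gene number after it. Levels are CPM, the read count scaled to a common library total. They are not divided by gene length, so levels of different genes are not ranked against each other as expression, and fewer cells of a type and less RNA per cell cannot be told apart in whole thalli.

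Library totals lay between 44802998 and 57696744 counts, with the lowest in WT replicate 2. Every count was even, which fits 1 read pair adding 2 to a gene, and numbers of pairs below are counts divided by 2. At 1 CPM a library held between 22.4 and 28.8 pairs. A count of 0 allows up to 3 pairs, or 0.104 to 0.134 CPM in a library, and this limit covers counting error only. All libraries carry the male label, and 34 of 113 Y-chromosome IDs had at least 1 pair in all 9. The IDs could not be set against markers of thallus tissues, since none has a name.

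Selection used the group means. KO had to reach a mean of at least 1 CPM and at least 2-fold the WT mean, with 0.1 CPM added to both means. OX had to lie within 1.5-fold of WT in either direction, with the same 0.1 CPM added. All KO libraries had to be above all WT libraries. Y-chromosome IDs and scaffolds with fewer than 3 IDs were left out. These values describe the members and support nothing, because they chose them. With the same conditions on KO and WT, 121 IDs were higher in KO. In 63 of them OX lay within the limits, in 34 OX was above the upper limit and in 24 OX was below the lower limit.

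**Figure D1:**
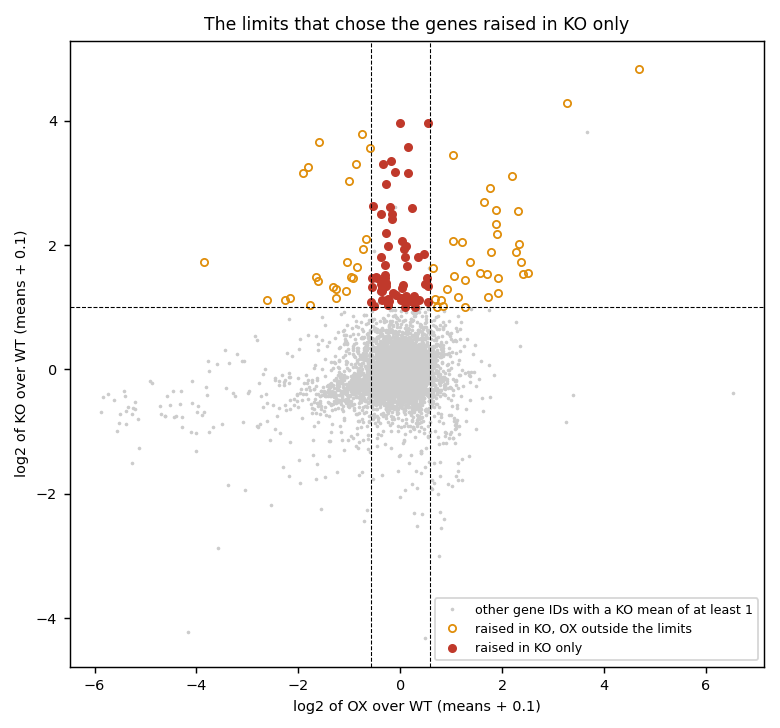
Log2 ratio of KO over WT (vertical axis) against the log2 ratio of OX over WT (horizontal axis), both of group means with 0.1 CPM added, for gene IDs with a KO mean of at least 1 CPM; 1 point per ID, and dashed lines are the limits of the rule. The 63 filled points lie above the horizontal line and between the vertical ones because they were chosen so, and open points are the IDs that met the conditions on KO with OX above (34) or below (24) the limits.

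Most members were higher in KO by a small factor. The log2 ratio of KO over WT ran from 1.00 to 3.96 with a median of 1.39, and 37 of 63 lay below 1.5. Across all 14813 genes tested the median was -0.02. For OX over WT the members' median was -0.16, between -0.57 and 0.55, against 0.06 for all genes tested. OX was below WT in 35 members, above it in 27 and equal in 1, where both were at 0. With TMM-scaled libraries, 39 were below and 23 above. The log2 ratio of KO over OX, fixed in part by the same limits, had a median of 1.67 and a range of 0.54 to 3.95.

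Summed over the 63 members, reads were 2113, 2277 and 2194 CPM in KO thalli, 758, 893 and 851 CPM in OX thalli and 729, 809 and 892 CPM in WT thalli. The mean was 2195 ± 82.1 CPM in KO, 834 ± 68.9 CPM in OX and 810.1 ± 81.6 CPM in WT (SD, n = 3 libraries each). The 4 members with the largest difference between KO and WT held 58.8% of the summed difference of 1385 CPM, and the 10 largest held 79.7%. At the other end, 15 members had a KO mean below 2 CPM. The members' median WT mean was 2.81 CPM, against 19.4 CPM over all genes tested, and WT levels enter the rule through the fold change.

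**Figure D2:**
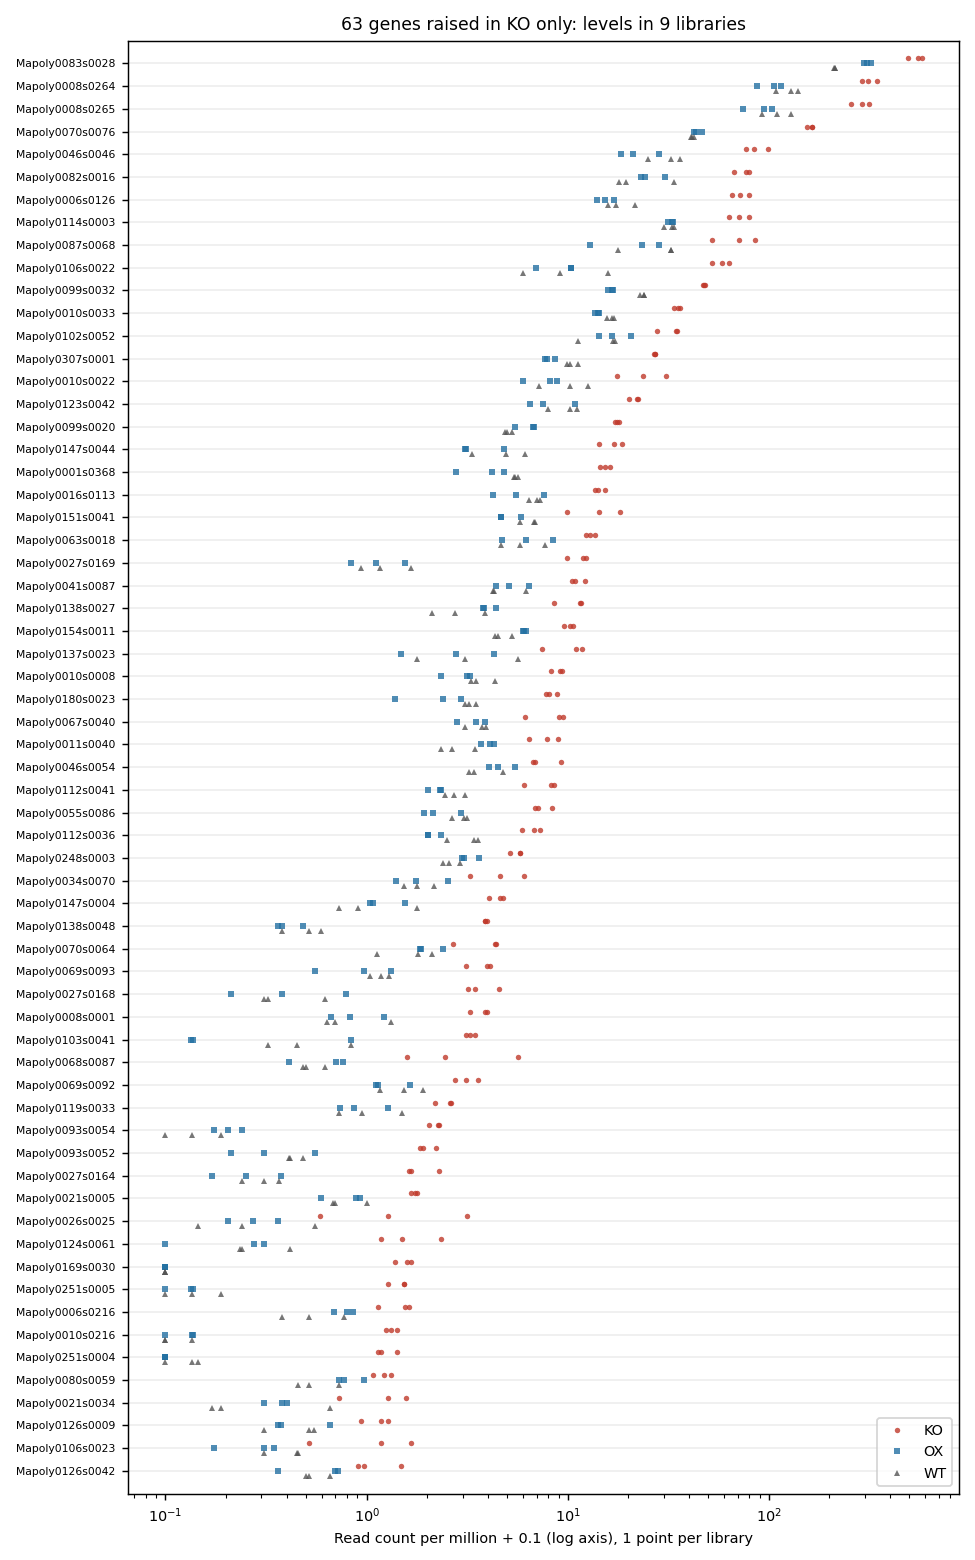
CPM plus 0.1 (log axis) in each of the 9 libraries for all 63 members, ordered by KO mean; circles are KO, squares OX and triangles WT. KO points lie right of all WT points for every member by choice, and right of all OX points for all 63 as well.

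In every member all 3 KO libraries were also above all 3 OX libraries, which the rule did not ask for outright. This separation held in 18.6% of all genes tested, and the separation of KO from WT, which the rule did ask for, in 11.6%. By edgeR's quasi-likelihood test, fitted on the whole table and adjusted over all genes tested, 62 of the 63 members were called higher in KO than in WT, where 6.51% of genes tested were. The exception was Mapoly0126s0042 (adjusted p = 0.0536). Against OX, 62 members were called higher in KO, where 19.1% of genes tested were, and the exception was Mapoly0080s0059 (adjusted p = 0.0519). Both comparisons enter the rule, so nothing is read from these counts. All 63 members passed the filter on low counts.

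The 10 members with the most reads in KO came from 9 scaffolds. Mapoly0083s0028 had 575, 549 and 493 CPM in KO thalli, 296, 321 and 309 CPM in OX thalli and 214, 211 and 213 CPM in WT thalli. Mapoly0070s0076 had 163, 155 and 163 CPM in KO thalli, 46.3, 43.1 and 42.6 CPM in OX thalli and 41.1, 41.4 and 42.5 CPM in WT thalli. Mapoly0114s0003 had 71.0, 63.5 and 79.4 CPM in KO thalli, 33.4, 31.5 and 33.1 CPM in OX thalli and 30.1, 33.6 and 33.0 CPM in WT thalli. These members differed in where OX stood. In Mapoly0083s0028 the OX libraries formed a middle step, above every WT library and below every KO library. In Mapoly0070s0076 and Mapoly0114s0003 the OX and WT means differed by at most 0.08 on the log2 scale, and the KO mean was 3.84-fold and 2.21-fold the WT mean. Mapoly0070s0076 was tight in all genotypes, at 160.4 ± 4.94 CPM in KO, 44.0 ± 2.01 CPM in OX and 41.7 ± 0.735 CPM in WT (SD, n = 3 each).

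Mapoly0006s0126 had 65.7, 79.3 and 71.9 CPM in KO thalli, 13.9, 15.2 and 16.9 CPM in OX thalli and 15.8, 17.4 and 21.4 CPM in WT thalli. Mapoly0046s0046 had 77.04, 84.0 and 99.2 CPM in KO thalli, 18.2, 21.1 and 28.4 CPM in OX thalli and 24.9, 32.7 and 36.0 CPM in WT thalli. Here the OX mean lay below the WT mean, by 0.24 and 0.46 on the log2 scale, and OX and WT libraries overlapped. Mapoly0106s0022 had 51.8, 63.4 and 58.6 CPM in KO thalli, 6.84, 10.3 and 10.3 CPM in OX thalli and 5.87, 9.02 and 15.8 CPM in WT thalli. Mapoly0082s0016 had 67.3, 79.3 and 76.9 CPM in KO thalli, 24.2, 30.2 and 23.2 CPM in OX thalli and 19.3, 17.8 and 33.5 CPM in WT thalli. Mapoly0087s0068 had 52.3, 71.0 and 84.9 CPM in KO thalli, 12.7, 28.5 and 23.2 CPM in OX thalli and 17.7, 32.7 and 32.4 CPM in WT thalli. In these 3 genes the OX and WT libraries overlapped, and the WT libraries spread widely, with an SD of 5.05, 8.65 and 8.55 CPM. The lowest KO library of Mapoly0087s0068 was 1.60-fold the highest WT library.

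The remaining pair of this group carries consecutive IDs. Mapoly0008s0264 had 291, 345 and 312 CPM in KO thalli, 86.9, 115 and 106 CPM in OX thalli and 108, 129 and 139 CPM in WT thalli. Mapoly0008s0265 had 257, 316 and 292 CPM in KO thalli, 74.1, 103 and 94.8 CPM in OX thalli and 92.0, 109.9 and 128 CPM in WT thalli. The levels of the pair moved together, and Mapoly0008s0264 had between 1.07 and 1.18 times the CPM of Mapoly0008s0265 in each of the 9 libraries. Their log2 ratios of KO over WT were 1.33 and 1.39. The IDs on either side, Mapoly0008s0263 and Mapoly0008s0266, had 1 and 0 pairs in the KO libraries. How reads shared by near-identical copies were counted is not given in the sources used here, so a split of reads between these 2 IDs was not tested.

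Other members had low levels in OX and WT. In 16 members the OX mean and the WT mean were both under 0.5 CPM, with KO means of 1.02 to 3.80 CPM from 88 to 328 pairs. They ranged from Mapoly0126s0042, with 88 pairs in KO, 42 in OX and 37 in WT, to genes with few or 0 pairs in OX and WT. Mapoly0169s0030 had 1.57, 1.28 and 1.5 CPM in KO thalli and 0 pairs in all OX and WT libraries. A count of 0 over a whole genotype allows 3 pairs. Scaled for depth, the 125 pairs in KO were 40.6 times that limit in OX and 38.5 times that limit in WT. Counting error in the KO pairs is left out, so these ratios are not lower bounds. Mapoly0010s0216 had 1.22, 1.14 and 1.32 CPM in KO thalli, 0.0376, 0 and 0.0350 CPM in OX thalli and 0, 0 and 0.0349 CPM in WT thalli. The 106 pairs of this gene in KO, against 2 in OX and 1 in WT, gave a ratio of 98.0 to WT with a 95% exact binomial interval of 17.2 to 3905. Such intervals cover counting error only.

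Mapoly0093s0054 had 1.95, 2.18 and 2.16 CPM in KO thalli, 0.0751, 0.104 and 0.140 CPM in OX thalli and 0.0349, 0.0893 and 0 CPM in WT thalli. It had 181 pairs in KO, 9 in OX and 3 in WT, and the ratio to WT was 55.8 (interval 18.8 to 273). By the log2 ratio with 0.1 CPM added it had the largest difference of all members, 3.96, and the highest OX ratio within the limits, 0.55. That OX ratio rests on 9 pairs in OX against 3 in WT, and without OX replicate 1 or without WT replicate 2 it passed the limit.

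Mapoly0138s0048 had 3.76, 3.85 and 3.79 CPM in KO thalli, 0.263, 0.381 and 0.280 CPM in OX thalli and 0.419, 0.491 and 0.279 CPM in WT thalli. This was among the most even members, with KO libraries that differed by a factor of 1.02 and 328 pairs in KO against 26 in OX and 31 in WT. Mapoly0103s0041 had 3.17, 3.36 and 3.03 CPM in KO thalli, 0.0376, 0.0347 and 0.735 CPM in OX thalli and 0.349, 0.223 and 0.732 CPM in WT thalli. In Mapoly0103s0041 most of the OX reads came from OX replicate 3, which also set the OX SD of 0.403 CPM around a mean of 0.269 CPM, and the KO libraries were at 3.19 ± 0.168 CPM. The gene was no longer a member without OX replicate 3, without WT replicate 1 or without WT replicate 2.

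Some members carried neighbouring IDs. Members made up 0.339% of the 18596 IDs. Of the 523 IDs within 5 gene numbers of a member on the same scaffold, 15 were members themselves, or 2.87%. These shares are a description, with no test. These 15 members formed 7 runs, on scaffold numbers 8, 27, 69, 93, 106, 112 and 251. In all, the 63 members lay on 43 scaffolds, and 16 of these scaffolds held 2 or more. Distances in bases between the genes are not given here.

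The longest run was on scaffold number 27. Mapoly0027s0164 had 2.20, 1.53 and 1.57 CPM in KO thalli, 0.150, 0.277 and 0.0700 CPM in OX thalli and 0.140, 0.268 and 0.209 CPM in WT thalli. Mapoly0027s0168 had 4.43, 3.09 and 3.34 CPM in KO thalli, 0.113, 0.693 and 0.280 CPM in OX thalli and 0.210, 0.223 and 0.523 CPM in WT thalli. Mapoly0027s0169 had 12.2, 11.8 and 9.78 CPM in KO thalli, 1.01, 1.46 and 0.735 CPM in OX thalli and 0.838, 1.07 and 1.57 CPM in WT thalli. In all 3 the KO libraries were more than 5-fold above the highest WT library, and OX and WT overlapped. The KO means were 6.10-fold, 8.88-fold and 9.02-fold the WT means with 0.1 CPM added.

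These 3 members lay inside a stretch of 12 consecutive IDs, Mapoly0027s0161 to Mapoly0027s0172, that were all higher in KO. The stretch was delimited after its values were seen, and its log2 ratios of KO over WT ran from 2.24 to 3.79. The 2.24 of Mapoly0027s0166 and the 2.79 of Mapoly0027s0171 came with 0 pairs in WT, so the 0.1 CPM added limits both. All KO libraries were above all WT and all OX libraries in each of the 12. The low-count filter kept 11 of the 12, and all 11 were called higher in KO than in WT, where 6.51% of genes tested were. They were called in each of the 16 alternative fits. Mapoly0027s0166, which the filter removed, had 32 pairs in KO, 4 in OX and 0 in WT.

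The stretch IDs that are not members numbered 9. Mapoly0027s0163 had 20.8, 26.4 and 22.5 CPM in KO thalli, 0.263, 0.901 and 0.385 CPM in OX thalli and 1.12, 1.21 and 2.93 CPM in WT thalli. Its adjusted p for KO against WT was 8.00e-05 (log2 fold change 3.75 ± 0.36, SE). Mapoly0027s0167 had 17.0, 13.8 and 15.4 CPM in KO thalli, 0.376, 1.53 and 0.630 CPM in OX thalli and 1.22, 1.79 and 2.37 CPM in WT thalli. Mapoly0027s0162 had 9.38, 13.7 and 14.1 CPM in KO thalli, 0.188, 0.277 and 0.350 CPM in OX thalli and 0.489, 1.61 and 1.81 CPM in WT thalli. These 3 lay outside the limits, with log2 ratios of OX over WT of -1.59, -1.004 and -1.92. Mapoly0027s0161, Mapoly0027s0162 and Mapoly0027s0163 were called lower in OX than in WT (adjusted p = 0.0147, 0.00612 and 0.0158). They were called in 15, 16 and 14 of 16 alternative fits. Over all genes tested, 14.3% were called lower in OX and 10.5% higher. Mapoly0027s0171 was called higher in OX (adjusted p = 0.00843), on 11 pairs in OX and 0 in WT. The 12 IDs together had 83.0, 92.3 and 87.0 CPM in KO thalli, 2.67, 6.20 and 3.53 CPM in OX thalli and 4.68, 7.59 and 11.7 CPM in WT thalli. The sums in OX and WT overlapped. Of the 9, 7 lay outside the limits on OX and 3 had a KO mean under 1 CPM, with Mapoly0027s0171 failing both.

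Beyond the stretch the difference was not seen. The ID after it, Mapoly0027s0173, had 16.8 ± 1.04 CPM in KO, 22.0 ± 2.08 CPM in OX and 19.7 ± 2.91 CPM in WT (SD, n = 3 each). On the other side, Mapoly0027s0159 and Mapoly0027s0160 had at most 2 pairs in any genotype, too few to compare. Beyond them, Mapoly0027s0158 had 24.7 ± 3.38 CPM in KO, 27.8 ± 2.41 CPM in OX and 23.5 ± 2.45 CPM in WT. Of the 9 flanking IDs examined, 7 were tested and 0 were called between KO and WT by edgeR, with 0 at an unadjusted p under 0.05 and 0 called by DESeq2. Mapoly0027s0173 and Mapoly0027s0176 were each called lower in KO in 1 of the 16 alternative fits. The log2 ratios of the 7 lay between -0.31 and 0.07.

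**Figure D3:**
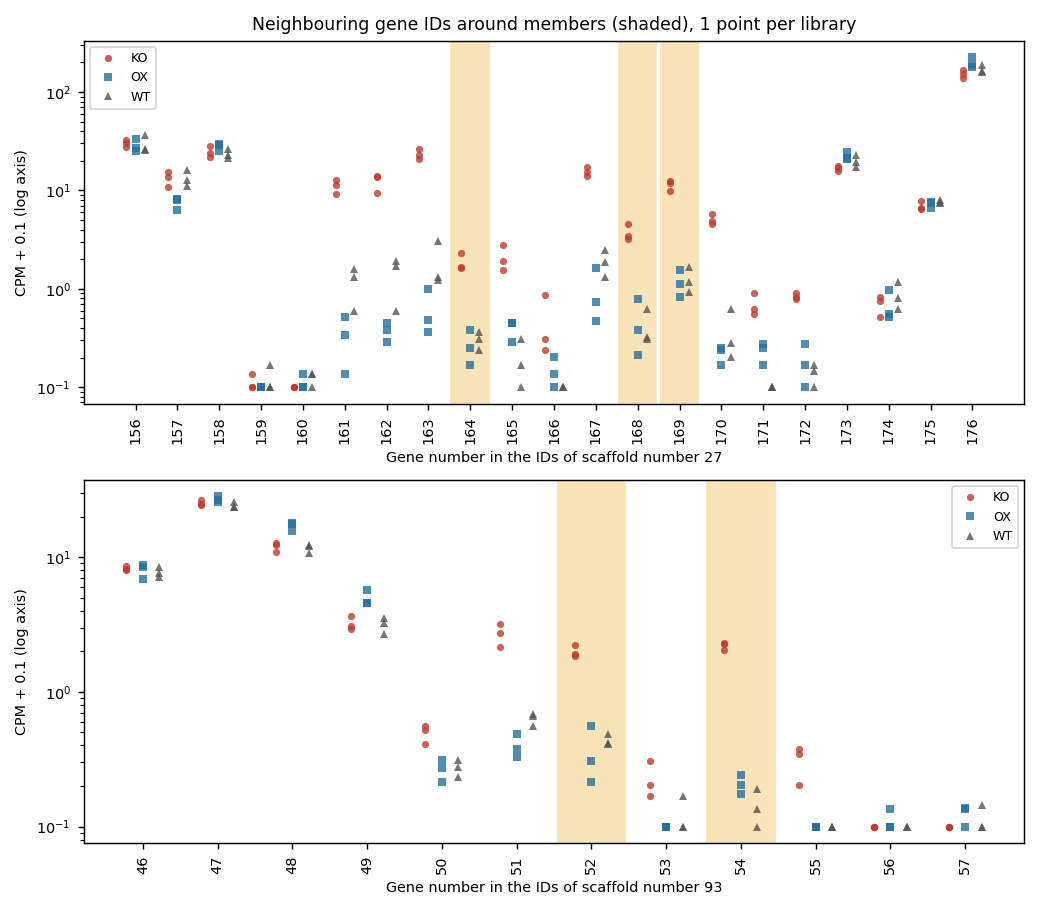
CPM plus 0.1 (log axis) in each library for consecutive gene IDs of scaffold number 27 (upper panel) and 93 (lower panel); circles are KO, squares OX, triangles WT, and shading marks the members. In the upper panel the KO points stand above the OX and WT points from gene number 161 to 172, and at 173 to 176 the 3 genotypes lie close together.

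A shorter stretch surrounded the pair on scaffold number 93. Mapoly0093s0052 had 1.74, 2.11 and 1.81 CPM in KO thalli, 0.113, 0.208 and 0.455 CPM in OX thalli and 0.384, 0.312 and 0.314 CPM in WT thalli. Next to it, Mapoly0093s0051 had 2.06, 3.09 and 2.64 CPM in KO thalli, 0.225, 0.277 and 0.385 CPM in OX thalli and 0.454, 0.580 and 0.558 CPM in WT thalli. It was called higher in KO than in WT (edgeR log2 fold change 2.32 ± 0.24, SE, adjusted p = 0.00014), and its OX ratio of -0.67 placed it just outside the limits. Mapoly0093s0053 and Mapoly0093s0055, below the filter, had 11 and 18 pairs in KO, 0 in OX, and 2 and 0 in WT. Mapoly0093s0050, on the other side of Mapoly0093s0051, had 34 pairs in KO, 14 in OX and 14 in WT. It was called higher in KO than in WT (log2 fold change 1.19 ± 0.35, SE, adjusted p = 0.0471), but in only 1 of 15 alternative fits. From Mapoly0093s0046 to Mapoly0093s0049 the KO and WT means differed by at most 0.10 on the log2 scale.

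The pair on scaffold number 251 was the last of its 5 IDs. Mapoly0251s0004 had 1.08, 1.32 and 1.04 CPM in KO thalli, 0, 0 and 0 CPM in OX thalli and 0.0349, 0.0446 and 0 CPM in WT thalli. Mapoly0251s0005 had 1.43, 1.18 and 1.43 CPM in KO thalli, 0.0376, 0.0347 and 0 CPM in OX thalli and 0, 0.0893 and 0.0349 CPM in WT thalli. Mapoly0251s0004 had 99 pairs in KO, 0 in OX and 2 in WT, and Mapoly0251s0005 had 116, 2 and 3. For Mapoly0251s0004 KO was 32.2 times the limit of 3 pairs over the OX libraries, again with counting error in KO left out. The ratios of these genes to WT were 45.7 (interval 12.3 to 383) and 35.7 (interval 11.9 to 176). On the same scaffold, Mapoly0251s0001 had 52.0 ± 2.39 CPM in KO, 56.5 ± 2.5 CPM in OX and 52.9 ± 3.84 CPM in WT, which did not pass the test of KO against WT (adjusted p = 0.988).

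The other runs were also pairs. Mapoly0069s0092 had 2.65, 3.47 and 3.03 CPM in KO thalli, 1.01, 1.04 and 1.54 CPM in OX thalli and 1.43, 1.07 and 1.81 CPM in WT thalli. Mapoly0069s0093 had 4.01, 3.88 and 3.03 CPM in KO thalli, 0.451, 0.867 and 1.22 CPM in OX thalli and 1.08, 0.937 and 1.19 CPM in WT thalli. The second of these had the larger ratio of KO over WT, 1.68 against 1.03 on the log2 scale. Mapoly0112s0041 had 5.996, 8.43 and 8.14 CPM in KO thalli, 2.22, 2.25 and 1.92 CPM in OX thalli and 2.34, 2.63 and 2.998 CPM in WT thalli. Mapoly0112s0036 had 5.86, 6.73 and 7.20 CPM in KO thalli, 1.92, 2.25 and 1.92 CPM in OX thalli and 2.41, 3.30 and 3.49 CPM in WT thalli. The CPM of Mapoly0112s0036 was 0.798 to 1.25 times that of Mapoly0112s0041 over the 9 libraries. Mapoly0112s0036 had the lowest OX ratio of all members, and both genes had all OX libraries below all WT libraries. With TMM-scaled libraries or DESeq2 size factors Mapoly0112s0036 no longer met the rule. Between them, Mapoly0112s0037 had a log2 ratio of KO over WT of 0.08. Mapoly0106s0022, described above, is followed by Mapoly0106s0023, which had 1.57, 1.07 and 0.418 CPM in KO thalli, 0.0751, 0.208 and 0.245 CPM in OX thalli and 0.349, 0.357 and 0.209 CPM in WT thalli. Its KO replicate 3 was only 1.17-fold the highest WT library. Around the 7 runs, counting 3 IDs to either side, 27 IDs that are not members were tested. In KO against WT 11 of the 27 were called higher, where 6.51% of genes tested were. Of the 11, 8 lay in the stretch on scaffold number 27. Only 1 of the 27 was called lower, where 1132 of the 14813 genes tested were.

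Outside the runs, scaffold number 70 held further raised IDs. Mapoly0070s0064 was a member with 4.25, 4.30 and 2.57 CPM in KO thalli, 1.77, 1.73 and 2.31 CPM in OX thalli and 2.03, 1.03 and 1.71 CPM in WT thalli. Mapoly0070s0065 after it did not pass the test of KO against WT (adjusted p = 0.392). The next IDs, Mapoly0070s0066 and Mapoly0070s0067, had 8.93 ± 2.14 and 6.93 ± 1.08 CPM in KO, 0.402 ± 0.114 and 0.296 ± 0.0443 CPM in OX, and 0.815 ± 0.476 and 0.499 ± 0.22 CPM in WT. Both were called higher in KO than in WT (adjusted p = 9.10e-05 and 9.46e-06), and both missed the rule through an OX ratio of -0.87 and -0.60. Mapoly0070s0060, Mapoly0070s0061, Mapoly0070s0070 and Mapoly0070s0072 were called higher in KO than in WT as well, where 6.51% of genes tested were. Their log2 ratios were 0.96, 0.50, 0.94 and 0.66 (adjusted p = 0.0262, 0.0291, 0.000742 and 0.00712). The first and second of these were each called in 12 of 16 alternative fits. Mapoly0070s0061, Mapoly0070s0070 and Mapoly0070s0072 were also called lower in OX than in WT (adjusted p = 0.0119, 0.00752 and 0.0231). These 3 were called so in 16, 16 and 13 of 16 alternative fits, where 14.3% of genes tested were in the main fit. Within the same neighbourhood Mapoly0070s0069 was called lower in KO than in WT, at 0.510 ± 0.176 CPM in KO, 2.24 ± 0.445 CPM in OX and 3.31 ± 0.813 CPM in WT (adjusted p = 0.00018). The IDs of this scaffold were picked after their values were seen.

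OX stood apart from WT in some members despite the limits. By CPM on column totals, all OX libraries were above all WT libraries in 7 members, a pattern found in 27.5% of genes tested. They were below all WT libraries in 8 members, a pattern found in 16.1%. By the test of OX against WT, 3 members were called higher in OX, where 10.5% of genes tested were, and 5 were called lower, where 14.3% were. The limits on OX enter here, so nothing is read from these shares. The 3 were Mapoly0083s0028, Mapoly0099s0020 and Mapoly0154s0011. The 5 were Mapoly0001s0368, Mapoly0010s0033, Mapoly0099s0032, Mapoly0112s0036 and Mapoly0307s0001. Without WT replicate 2, the shallowest library, 5 members were called in all. Of the 8, Mapoly0010s0033, Mapoly0083s0028, Mapoly0099s0032 and Mapoly0307s0001 were called in each of 16 alternative fits, and the other 4 in 6 to 12 of them.

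Of the 27 members with the OX mean above the WT mean, the 7 without overlap of OX and WT libraries had the 3 genotypes in steps. Mapoly0083s0028 had 539 ± 41.9 CPM in KO, 309 ± 12.6 CPM in OX and 212 ± 1.37 CPM in WT (SD, n = 3 each). The OX libraries stood between those of KO and WT. Mapoly0099s0020 had 17.6, 17.8 and 17.0 CPM in KO thalli, 5.37, 6.72 and 6.65 CPM in OX thalli and 4.75, 4.87 and 5.16 CPM in WT thalli. Mapoly0154s0011 had 9.45, 10.6 and 10.2 CPM in KO thalli, 5.86, 5.93 and 6.12 CPM in OX thalli and 4.40, 4.24 and 5.19 CPM in WT thalli. Mapoly0011s0040 had 6.34, 7.77 and 8.87 CPM in KO thalli, 3.61, 4.19 and 4.02 CPM in OX thalli and 2.55, 3.35 and 2.23 CPM in WT thalli. KO was highest, OX in between and WT lowest in all 4, with no overlap between genotypes. By CPM on column totals the same order without overlap held for Mapoly0080s0059 and Mapoly0248s0003, and for Mapoly0070s0076, where the OX step was 0.08 on the log2 scale. The lowest OX library barely passed the highest WT library in Mapoly0080s0059 (0.630 against 0.628 CPM) and Mapoly0070s0076 (42.59 against 42.53 CPM). By edgeR's test of OX against WT, Mapoly0011s0040, Mapoly0080s0059, Mapoly0248s0003 and Mapoly0070s0076 were not called (adjusted p = 0.0645, 0.146, 0.207 and 0.714).

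Of the 35 members with the OX mean below the WT mean, 8 had no overlap of OX and WT libraries. In these KO and OX libraries lay on opposite sides of WT. Mapoly0099s0032 had 46.7, 47.7 and 48.0 CPM in KO thalli, 16.6, 15.7 and 16.6 CPM in OX thalli and 23.7, 23.8 and 22.8 CPM in WT thalli. Mapoly0307s0001 had the most even KO libraries of all, at 27.02 ± 0.114 CPM in KO, 7.98 ± 0.492 CPM in OX and 10.4 ± 0.694 CPM in WT. Its OX libraries were all below its WT libraries. Mapoly0010s0033 had 36.2, 35.1 and 33.7 CPM in KO thalli, 14.2, 14.1 and 13.5 CPM in OX thalli and 16.6, 15.5 and 17.0 CPM in WT thalli. Mapoly0001s0368 had 14.4, 15.2 and 16.2 CPM in KO thalli, 4.09, 4.71 and 2.69 CPM in OX thalli and 5.34, 5.31 and 5.58 CPM in WT thalli. OX was below WT without overlap in all 4, and likewise in Mapoly0112s0036, Mapoly0010s0008, Mapoly0112s0041 and Mapoly0180s0023. The last 3 named were not called by edgeR's test of OX against WT (adjusted p = 0.0730, 0.137 and 0.0663). Scaffold number 99 thus held 1 member of each kind, Mapoly0099s0020 with OX above WT and Mapoly0099s0032 with OX below it. For Mapoly0307s0001, the first of 3 IDs on its scaffold, Mapoly0307s0003 was also called higher in KO than in WT (adjusted p = 0.0104), at 0.545 ± 0.0816 CPM in KO, 0.141 ± 0.0664 CPM in OX and 0.114 ± 0.0717 CPM in WT.

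The KO libraries agreed closely in some members and not in others. The ratio of the highest to the lowest KO library had a median of 1.23, was below 1.2 in 23 members and above 2 in 5. Mapoly0026s0025 was the least even, with 3.07, 1.18 and 0.487 CPM in KO thalli, 0.263, 0.173 and 0.105 CPM in OX thalli and 0.454, 0.0446 and 0.139 CPM in WT thalli. Its lowest KO library was 1.07-fold the highest WT library, and without KO replicate 1 it was no longer a member. Mapoly0068s0087 had 5.58, 2.36 and 1.5 CPM in KO thalli, 0.601, 0.312 and 0.665 CPM in OX thalli and 0.524, 0.402 and 0.383 CPM in WT thalli. Mapoly0124s0061 had 1.08, 2.25 and 1.39 CPM in KO thalli, 0, 0.208 and 0.175 CPM in OX thalli and 0.140, 0.134 and 0.314 CPM in WT thalli. In Mapoly0068s0087 the KO libraries differed by a factor of 3.73, yet all were more than 2-fold above every OX and WT library. In KO the members' coefficient of variation had a median of 10.5%, against 6.82% over all genes tested. In OX it was 23.3% against 6.32%, and in WT 22.7% against 7.52%. Many members had few reads in these genotypes, and a link between read number and spread was not tested.

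**Figure D4:**
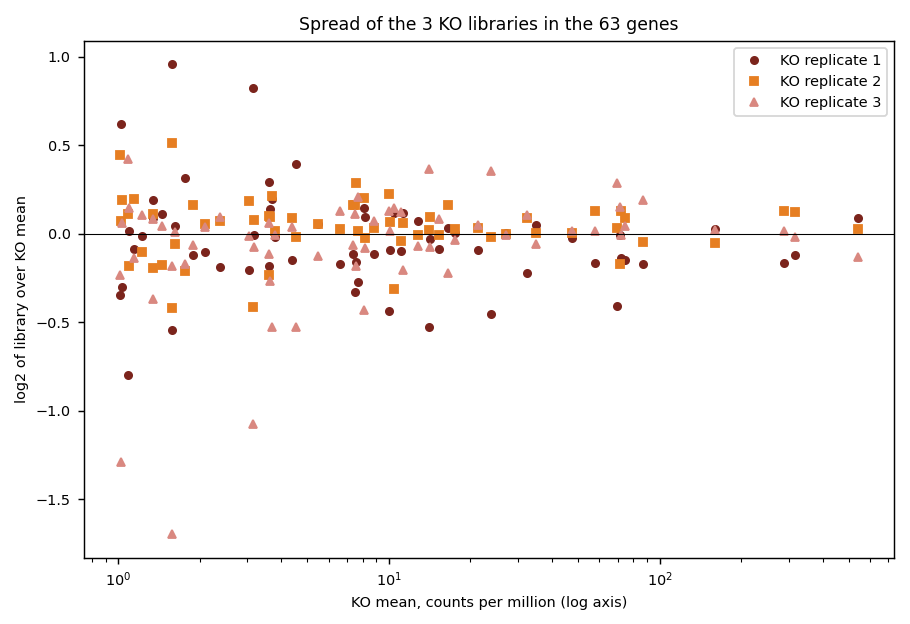
Log2 ratio of each KO library to the KO mean (vertical axis) against the KO mean in CPM (log axis) for the 63 members; circles, squares and triangles are KO replicates 1, 2 and 3. Most points lie near 0, and the members with the widest spread have KO means below 5 CPM.

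By CPM on column totals, the libraries within a genotype were not ordered alike in the members and in all genes tested. The rule did not set this measure directly. KO replicate 1 was the lowest KO library in 32 members (50.8%), against 28.9% of all genes tested. KO replicate 2 was the highest in 27 members (42.9%), against 17.7%. WT replicate 3 was the highest WT library in 39 members (61.9%), against 41.9%. Replicate 1 was the lowest in all 3 genotypes at once in 13 members (20.6%), against 11.4%. Among these were Mapoly0008s0264, Mapoly0008s0265, Mapoly0006s0126, Mapoly0046s0046, Mapoly0087s0068 and Mapoly0106s0022, which belong to the 10 with the most reads. These shares are descriptions, without a test, and the members are not independent of each other. They also depend on the scaling, and KO replicate 2 was the lowest KO library in 42.3% of all genes tested. Its TMM factor was 0.958, against 0.985 and 0.987 for KO replicates 1 and 3. The order with TMM-scaled libraries was not tested.

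The remaining 34 members, outside the rule for named genes, had KO means from 1.03 to 47.5 CPM with a median of 8.13 CPM. Their OX means lay between 0.128 and 17.0 CPM and their WT means between 0.196 and 23.4 CPM. The log2 ratios of KO over WT were 1.00 to 2.60 with a median of 1.26, and those of OX over WT were -0.56 to 0.54 with a median of 0.03. Some had OX above WT and some below. Mapoly0102s0052 had 27.7, 34.4 and 34.9 CPM in KO thalli, 14.3, 20.5 and 16.4 CPM in OX thalli and 11.1, 17.1 and 16.7 CPM in WT thalli. Mapoly0010s0022 had 17.5, 23.6 and 30.7 CPM in KO thalli, 5.90, 8.08 and 8.71 CPM in OX thalli and 7.12, 10.2 and 12.4 CPM in WT thalli. Mapoly0138s0027 had 11.4, 8.46 and 11.6 CPM in KO thalli, 3.72, 3.71 and 4.30 CPM in OX thalli and 2.65, 2.01 and 3.77 CPM in WT thalli. In these 3, picked as examples, OX and WT overlapped, and KO replicate 1 was lowest in the first and second of them but not in the third. Mapoly0008s0001 had 3.17, 3.85 and 3.76 CPM in KO thalli, 0.563, 0.728 and 1.12 CPM in OX thalli and 0.594, 0.536 and 1.22 CPM in WT thalli. Mapoly0147s0004 had 3.97, 4.68 and 4.52 CPM in KO thalli, 0.977, 1.46 and 0.945 CPM in OX thalli and 0.629, 0.804 and 1.67 CPM in WT thalli. In these the KO mean was higher than the WT mean by 2.06 and 1.98 on the log2 scale, from WT means of 0.783 and 1.04 CPM.

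Membership depended on single libraries in part. Of the 63 members, 33 met the rule without each library in turn, and between 53 and 62 met it without any 1 library. The most were lost without WT replicate 1 or WT replicate 2. Mapoly0106s0023 was lost without any of 5 libraries, and Mapoly0046s0054, Mapoly0080s0059, Mapoly0103s0041, Mapoly0126s0042 and Mapoly0180s0023 without any of 3. Of the 10 members with the most reads, Mapoly0046s0046 was lost without OX replicate 3 or WT replicate 1, Mapoly0087s0068 without OX replicate 2 or WT replicate 1, and the other 8 were kept. Of the members in runs, Mapoly0069s0092 was lost without KO replicate 2 or WT replicate 2, Mapoly0069s0093 and Mapoly0093s0052 without OX replicate 3, and Mapoly0112s0036 without OX replicate 2 or WT replicate 1. The 3 members on scaffold number 27 were kept throughout. Among other members described above, Mapoly0011s0040, Mapoly0070s0064 and Mapoly0080s0059 were lost without WT replicate 2, Mapoly0080s0059, Mapoly0099s0032, Mapoly0138s0027 and Mapoly0147s0004 without WT replicate 3, and Mapoly0102s0052 without WT replicate 1. Mapoly0001s0368 and Mapoly0124s0061 were lost without OX replicate 2, and Mapoly0080s0059 also without OX replicate 3.

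Some genes lay close to the limits. Mapoly0126s0042 was just inside those on the KO mean and on the fold, with 1.02 CPM in KO, 0.494 CPM in OX and 0.460 CPM in WT. Mapoly0106s0023 was next on the KO mean, and Mapoly0046s0054 next on the fold, with a log2 ratio of 1.00. Just outside were Mapoly0015s0096 and Mapoly0073s0055, with KO means of 0.985 and 0.974 CPM, and Mapoly0088s0053 and Mapoly0020s0126, with log2 ratios of 0.99 and 0.98. On the OX side, Mapoly0093s0054 and Mapoly0083s0028 were just inside the upper limit at 0.55 and 0.54, and Mapoly0076s0088 and Mapoly0008s0270 outside it at 0.64 and 0.68. At the lower limit Mapoly0112s0036 and Mapoly0180s0023 were inside at -0.57 and -0.56, and Mapoly0070s0067 and Mapoly0093s0051 outside at -0.60 and -0.67.

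The condition on overlap left out 9 further genes. In several of them 1 KO library carried the mean, as in Mapoly0079s0033, which had 1.08, 0.901 and 17.6 CPM in KO thalli, 0.676, 0.867 and 1.19 CPM in OX thalli and 0.664, 0.759 and 1.53 CPM in WT thalli. In Mapoly0045s0061 KO replicate 1 lay among the WT libraries, with 7.74, 23.8 and 22.9 CPM in KO thalli, 8.68, 10.1 and 7.42 CPM in OX thalli and 8.21, 7.19 and 8.47 CPM in WT thalli. The minimum number of IDs on a scaffold left out 8 genes that met all other conditions, and 0 of them were Y-chromosome IDs. Among these, Mapoly2201s0001 had 16.5, 14.9 and 16.5 CPM in KO thalli, 1.65, 1.66 and 1.68 CPM in OX thalli and 1.54, 1.87 and 2.13 CPM in WT thalli. Mapoly1268s0001 had 23.9, 21.1 and 20.7 CPM in KO thalli, 7.06, 5.10 and 5.6 CPM in OX thalli and 3.18, 5.80 and 2.96 CPM in WT thalli. Mapoly2045s0001, with 45.4, 42.0 and 41.2 CPM in KO thalli, had at most 0.140 CPM in any OX or WT library. These genes were not counted among the 63.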

How the data were processed

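RNA from thalli of 3 genotypes was sequenced in 3 libraries each. The authors deposited raw read counts per gene ID of gene models version 3.1, 1 column per library. STAR 2.5.1b and featureCounts 1.5 were used per the submitters' processing notes; the build is not given in the sources used here, and the same holds for settings, strand and reads with several matches, so near-identical copies and overlapping genes may share reads. All 173583 counts were even. Columns of other samples numbered 0.

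Members were found from CPM on column totals, with the pseudocount of 0.1 and limits given in the report. The members and lists were chosen with earlier results of these data known. Genes kept by filterByExpr (14813) were tested with edgeR's quasi-likelihood test on the counts (version 4.0.16, R 4.3.3), TMM scaling, all 9 libraries and 1 mean per genotype, with Benjamini-Hochberg adjustment at 0.05 over all genes tested. DESeq2 (1.42.0) was an alternative. Ratios for genes with few pairs carry exact binomial (Clopper-Pearson) intervals. Replicates are biological per the series design, with no further detail.

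Described in full were the 10 members with the highest KO means, the 10 with the largest log2 ratio of KO over WT, the run of 3 members and the 5 other runs with the highest KO means (IDs at most 5 numbers apart), members with 0 pairs in WT, and the lowest and highest on the measures of fold, OX ratio and KO spread. Other IDs named were picked after their values were seen, some for lying next to a member or a limit. Product lists for pathways could not be applied, since no ID has a name.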

Additional observations from a re-analysis of the deposited data

How the results depend on the processing

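With other limits in the rule the number of members was 36 for a KO mean of at least 5 CPM, 26 for a log2 ratio of KO over WT of at least 1.5, and 37 for limits of 0.3 on the log2 ratio of OX over WT. It lay between 52 and 94 under the other settings and between 57 and 75 without 1 library. With 1 CPM added to the means in place of 0.1, 52 genes met the rule, and only 46 of the 63 members were among them. Under both other scalings 60 of the 63 were kept, and Mapoly0106s0023, Mapoly0112s0036 and Mapoly0180s0023 were lost under each. Without 1 library each, 54 to 62 members were called higher in KO than in WT, 58 to 63 higher in KO than in OX, and 5 to 9 in OX against WT; over all genes tested these calls numbered 1293 to 2076, 4063 to 5332 and 2680 to 3667, with 1293 without KO replicate 2 against 2096 with all libraries. Members called in OX against WT numbered 15 with DESeq2, against 8 of 63 in the main fit. They numbered 5 with only the genotypes compared in the fit, where the low-count filter kept 57 members. The cause of these differences was not tested. Deviations from the genotype means had r of 0.01 to 0.24 between samples with the same replicate number (6 of 9 pairs over 0.1). Between other numbers r was -0.26 to 0.02 (0 of 18 over 0.1). Deviations cancel out within a genotype, so these values are tied to those between the same numbers and add no separate support. By the 6 of 9 pairs alone, samples with the same number tended to vary together, and what they share was not tested. Not every such pair exceeded 0.1, the threshold set here, so the main fit left the numbers out. With the replicate number as a block, 18 members were called in OX against WT, and 3516 genes in KO against WT, Mapoly0027s0173 and Mapoly0027s0176 among them (adjusted p = 0.0464 and 0.0173). Of genes called in OX against WT, 42.4% were higher in OX, a share of 57.2% when libraries were scaled by size alone; in KO against OX 54.9% were higher in KO, and 37.3% with that scaling. Of 464 recomputed fold changes of KO against WT for 29 named members, 0 changed sign. Calls were lost in 16, for Mapoly0026s0025, Mapoly0103s0041 and Mapoly0106s0023, and Mapoly0126s0042 was called in 5. Halved counts, an alternative added after the data were seen, gave 2142 genes in KO against WT. Members near 0 in OX and WT rest on few pairs, so depth limits their ratios.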
